A study of Mus musculus with 24 samples.

Results

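The Hippo pathway and its YAP target genes were followed through 24 mouse cortical tumours, each profiled on its own single-colour array. The 10 genes were chosen by name, out of 17097 genes with a probe set that carries a single gene symbol. They are the coactivators Yap1 and Wwtr1 (Wwtr1 encodes TAZ), their DNA-binding partners Tead1 and Tead2, the upstream regulators Nf2, Lats2, Ajuba and Amotl2, and the target genes Ctgf and Cyr61. The table of genes lists the last pair as Ccn2 and Ccn1. All 10 were measured, and all 10 passed the filter on dim genes that left 13218 genes for testing. Each gene was read from its probe set with the highest mean over the 24 arrays. Values are log2 expression values, on which a difference of 1 is a 2-fold difference, and levels are compared between tumours and never between genes.

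The series describes the tumours as derived from cells that expressed 1 of 3 class genes: RAB3A (6 tumours), BC74C (9) or ZNF668 (9). BC74C is not an approved gene symbol and is kept as labelled. A second label names 11 tumours ependymoma, 4 HGG (not spelled out), 5 TUMOR with no type and 4 UNKNOWN. The 6 RAB3A tumours hold 2 ependymomas, 2 TUMOR and 2 UNKNOWN, the 9 BC74C tumours 6 ependymomas, 2 HGG and 1 UNKNOWN, and the 9 ZNF668 tumours 3 ependymomas, 2 HGG, 3 TUMOR and 1 UNKNOWN. No tumour without a class gene and no normal cortex is among the samples, so each class gene was compared with the other class genes. The labels used here give no vector, promoter, animal age or sex, and do not say whether tumours came from separate animals, so p-values measure only the spread between these samples. Replicate numbers follow the order of deposit.

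The Hippo pathway is a kinase cascade that restrains growth. NF2 and other scaffolds at the cell cortex activate the LATS kinases, which phosphorylate YAP and TAZ and keep them out of the nucleus. When the kinases are quiet, YAP and TAZ bind TEAD factors and drive genes such as Ctgf, Cyr61, Amotl2, Ajuba and Lats2, some of which feed back on the pathway. YAP1 fusions drive a group of human ependymomas, and YAP is active in the radial glia of the developing cortex. YAP and TAZ are set mainly by phosphorylation and location, which mRNA values do not read.

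The arrays were on a common scale, with array medians from 4.98 to 5.19. No 2 arrays were copies of each other (Pearson's r between arrays over all probe sets from 0.89 to 0.99). The titles of 18 tumours start with elw and those of 6 with mmr (2 RAB3A, 1 BC74C and 3 ZNF668), which may mark a batch. Rab3a, the mouse form of that class gene, ran from 8.20 to 10.37 in RAB3A tumours, within the range of 6.44 to 10.62 in ZNF668 tumours. Zfp668, the mouse form of ZNF668, ran from 4.67 to 5.55 in ZNF668 tumours and from 4.54 to 5.76 in the others, so neither transcript marked its own group. Whether these mouse probe sets read the class gene transcript is not stated, so its presence in the tumours was not assessed. The mean of 11 ependymal and motile cilia genes was 5.54 ± 0.43 (SD, n = 11) in tumours labelled ependymoma and 5.53 ± 0.39 (SD, n = 4) in those labelled HGG, and therefore did not mark the ependymoma label either. The 4 tumours labelled UNKNOWN had a higher mature neuron marker mean than the ependymomas and a lower radial glia and neural stem mean. Their neuron mean was 9.28 ± 0.34 (SD, n = 4) against 8.01 ± 1.10 (SD, n = 11) in ependymomas, and 6 of the other 20 tumours, 4 of them ependymomas, lay within their range of 8.90 to 9.63. Their radial glia mean was 7.95 ± 0.40 against 8.89 ± 0.40, and 2 of the other 20 lay within their range of 7.41 to 8.29. The differences in Tead2, the count of called pairs and the called relations with cell marker lists are given with and without these tumours.

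Because YAP and TAZ act through TEAD factors, the 250 bases before the start of each gene were searched for the TEAD core letters GGAATG or CATTCC, the same motif on the 2 strands. Sites farther from the start were not searched. Sequences are from a set of RefSeq promoters, build GRCm38.p6. The set supplied holds an entry for 8 of the 10 genes and none for Tead1 or Ctgf, although RefSeq lists both genes. Where a gene has several starts in the set, the one farthest upstream was used. For Amotl2, Yap1 and Lats2 the RefSeq gene begins farther upstream than this start, so the bases searched lie partly or wholly inside the gene. The motif was found in 5 of the 8, and 12.6% of all 32851 promoter entries hold it. The stretches around the match are printed below 5′ to 3′ in the direction of the gene, in lower case with the motif in capitals, since these 5 genes include both coactivators and 3 of the targets whose levels are described below.

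Yap1, chr9:8004675-8004794, minus strand: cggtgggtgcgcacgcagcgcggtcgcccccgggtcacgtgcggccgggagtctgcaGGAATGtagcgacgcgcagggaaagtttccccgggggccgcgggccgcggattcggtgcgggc

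Wwtr1, chr3:57575984-57576103, minus strand: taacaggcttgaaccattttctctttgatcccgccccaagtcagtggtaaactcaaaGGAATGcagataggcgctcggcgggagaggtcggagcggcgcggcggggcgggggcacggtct

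Ajuba, chr14:54577763-54577904, minus strand: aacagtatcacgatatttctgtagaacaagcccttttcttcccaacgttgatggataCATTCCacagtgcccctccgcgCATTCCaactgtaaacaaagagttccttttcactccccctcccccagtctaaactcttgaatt

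Amotl2, chr9:102717682-102717801, plus strand: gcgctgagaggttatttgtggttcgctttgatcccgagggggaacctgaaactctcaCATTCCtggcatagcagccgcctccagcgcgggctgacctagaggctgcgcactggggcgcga

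Cyr61, chr3:145650026-145650145, minus strand: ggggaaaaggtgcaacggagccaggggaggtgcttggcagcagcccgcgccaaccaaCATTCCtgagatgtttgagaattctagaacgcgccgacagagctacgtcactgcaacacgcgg

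Distances were read from the start of the promoter entry. The first base of the motif lay 141 bases upstream in Yap1, 136 in Wwtr1, 65 in Amotl2 and 103 in Cyr61. RefSeq lists Amotl2 from chr9:102717091, so its printed stretch lies inside the gene and not before it. Ajuba held it at 186 and 164 bases upstream. The windows of Tead2, Nf2 and Lats2 did not hold these letters. A match is a description of the sequence and not a measured binding site, and no binding data are among the files.

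The genes differed in how widely they ranged over the tumours. Tead2, one of the TEAD factors, ran from 4.46 in RAB3A replicate 1 to 9.04 in BC74C replicate 6. Ctgf, which encodes a secreted matricellular protein, ran from 5.21 in BC74C replicate 9 to 9.97 in BC74C replicate 1. Cyr61, its close relative, ran from 6.44 in BC74C replicate 7 to 10.93 in BC74C replicate 4. The SD over 24 tumours placed these 3 at percentiles 97.6, 93.6 and 91.4 among the genes tested. Ajuba, a LIM protein that holds back LATS, ran from 5.47 to 8.94 (percentile 84.3). Yap1 (7.21 to 9.97), Wwtr1 (8.73 to 11.02) and Tead1 (7.87 to 10.68) lay at percentiles 76.8 to 77.5. Amotl2, a junction protein that binds YAP, ran from 6.81 to 8.98, and the kinase gene Lats2 from 6.15 to 8.05. Nf2, which encodes merlin, varied least of the 10 (8.28 to 9.52, percentile 33.4). The median gene had an SD of 0.44.

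**Figure D1:**
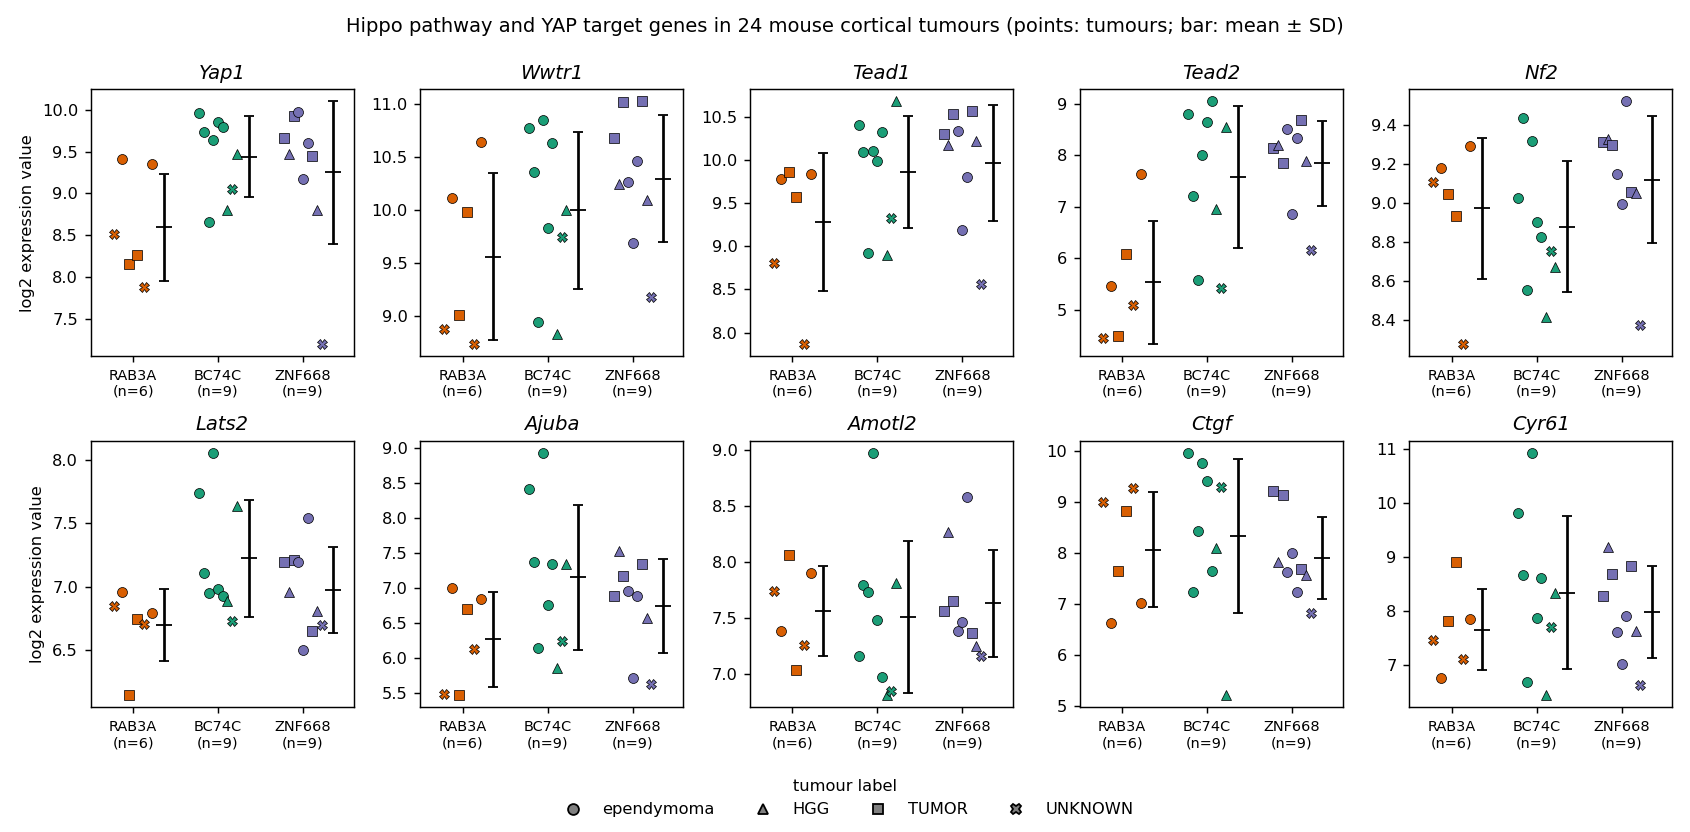
Log2 expression value (y axis) of the 10 genes in each of 24 tumours, by class gene (x axis); symbols give the tumour label, and the bar beside each group is the mean ± SD (RAB3A n = 6, BC74C n = 9, ZNF668 n = 9). Tead2 averaged 5.54 in RAB3A tumours against 7.58 and 7.85, and the 4 tumours labelled UNKNOWN lie low in Tead2, at 4.46 to 6.16.

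Whether the class gene sets the level of the pathway was asked first. None of the 10 genes differed between class genes at an adjusted p under 0.05 (limma, Benjamini-Hochberg over 13218 genes). This held for RAB3A against ZNF668, where 0.0757% of all genes tested were called, for BC74C against ZNF668 (0.303% of all genes) and for RAB3A against BC74C (0% of all genes). At an unadjusted p under 0.05, 2 of the 10 were lower in RAB3A than in ZNF668 tumours (Tead2 and Wwtr1), where 9.21% of all genes passed that level and 6.34% passed it as lower. Against BC74C, 4 were lower in RAB3A tumours (Yap1, Tead2, Lats2 and Ajuba), with 8.21% of all genes passing and 6.01% passing as lower. Between BC74C and ZNF668 tumours 0 of the 10 passed it, with 6.88% of all genes passing. An F test over the 3 class genes called 0 of the 10 (limma; 0.31% of all genes), with Tead2 nearest (adjusted p = 0.168). The 3 comparisons share tumours and are not independent of each other.

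Tead2 showed the widest gap between class genes. Its lowest, median and highest values were 4.46, 5.28 and 7.63 in the 6 RAB3A tumours. In the 9 BC74C tumours they were 5.42, 8.01 and 9.04. In the 9 ZNF668 tumours they were 6.16, 8.14 and 8.68. Most RAB3A tumours thus lay below most others, but the groups overlapped, through RAB3A replicate 6 at 7.63 and the low BC74C and ZNF668 tumours. RAB3A tumours averaged 5.54 ± 1.19 (SD, n = 6) against 7.85 ± 0.82 (SD, n = 9) for ZNF668, a difference of -2.31 (SE 0.57, 95% interval -3.49 to -1.12, limma adjusted p = 0.217), the 30th smallest p of the 13218. Against BC74C (7.58 ± 1.37, n = 9) the difference was -2.04 (SE 0.57, limma adjusted p = 0.325). BC74C and ZNF668 tumours differed in Tead2 by -0.27 (SE 0.51, limma adjusted p = 0.982).

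Whether Tead2 passed the threshold rested on 1 tumour. Without RAB3A replicate 6 the difference from ZNF668 was -2.73 with a limma adjusted p of 0.0301. It was the only RAB3A tumour above the lowest ZNF668 tumour. That the rest, up to 6.09, lay below all 9 ZNF668 tumours, the lowest at 6.16, therefore follows from leaving it out. Without that tumour 40 of all genes tested were called (0.303%), against 10 with it. Within the elw titles the difference was -2.86 (limma adjusted p = 0.107). In the mmr titles the RAB3A tumours stood at 5.10 and 7.63 and the ZNF668 tumours at 6.16, 7.89 and 8.68. With title prefix as a block it was -2.31, and without the 4 UNKNOWN tumours -2.14. It was smaller, at -1.36, among the tumours labelled ependymoma, and -1.70 with the mature neuron marker mean in the model. That marker mean was 8.61 in RAB3A, 8.06 in BC74C and 7.41 in ZNF668 tumours; all 14 neuron genes tested were higher in RAB3A than in ZNF668 tumours by their mean differences, with 0 called and 3 at an unadjusted p under 0.05 (limma). Other lists moved with the class gene as well. All 11 proliferation genes tested were lower by their means in RAB3A tumours, with a median of -0.85 against ZNF668 and -1.01 against BC74C, and 0 passed in either comparison at an unadjusted or adjusted p under 0.05 (limma). The proliferation mean ran from 4.50 to 9.07 in RAB3A, from 5.40 to 9.22 in BC74C and from 5.3996 to 9.60 in ZNF668 tumours. Each of the 10 radial glia and neural stem genes had a lower mean in RAB3A than in ZNF668 tumours (median -0.34; 0 called and 1 at an unadjusted p under 0.05, limma). Tead2 had r = 0.52 with the proliferation mean (permutation p = 0.0105, adjusted p = 0.0543; rho = 0.55, permutation p = 0.00608, adjusted p = 0.0424), 0.55 without the 2 tumours of most extreme Tead2, 0.61 within elw and 0.22 within mmr. The part of proliferation and radial glia in the Tead2 difference was not tested. In whole tumours, fewer cells of a type and less RNA per cell cannot be told apart.

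Tead1, the other TEAD factor, differed less. It stood at 7.87, 9.67 and 9.86 (lowest, median, highest) in RAB3A tumours, at 8.89, 10.10 and 10.68 in BC74C and at 8.56, 10.22 and 10.56 in ZNF668, so that all 3 groups overlapped. The difference of RAB3A from ZNF668 was -0.68 (SE 0.35, limma adjusted p = 0.543). The coactivators showed the same overlap. Yap1 stood at 7.89, 8.39 and 9.41 in RAB3A tumours, at 8.66, 9.64 and 9.96 in BC74C and at 7.21, 9.47 and 9.97 in ZNF668. Its difference was -0.84 (SE 0.34, limma adjusted p = 0.494) for RAB3A against BC74C and -0.65 (SE 0.34, limma adjusted p = 0.545) against ZNF668. A second Yap1 probe set gave -0.995 and -0.880 for these comparisons. Wwtr1 stood at 8.73, 9.49 and 10.64 in RAB3A tumours, 8.83, 10.0004 and 10.84 in BC74C and 9.18, 10.26 and 11.02 in ZNF668. RAB3A differed from ZNF668 in Wwtr1 by -0.74 (SE 0.35, limma adjusted p = 0.537), and among the ependymomas alone the sign turned (0.24).

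Of the upstream regulators, Ajuba and Lats2 had lower means in RAB3A than in BC74C tumours (unadjusted p = 0.0462 and 0.0186, limma), and Nf2 and Amotl2 differed by at most 0.24 either way between class genes. The groups overlapped for all 4 genes. Nf2 averaged 8.97, 8.88 and 9.12 in RAB3A, BC74C and ZNF668 tumours, with differences from -0.24 to 0.10. Lats2 averaged 6.70 ± 0.28 (n = 6) in RAB3A tumours and 7.22 ± 0.46 (n = 9) in BC74C, a difference of -0.52 (SE 0.21, limma adjusted p = 0.493). The mean over all 5 Lats2 probe sets differed by -0.18; the other 4 averaged 3.07 to 4.94 over the tumours. Ajuba averaged 6.27, 7.15 and 6.74, with a difference of -0.89 (SE 0.42, limma adjusted p = 0.600) between RAB3A and BC74C. Amotl2 averaged 7.56, 7.51 and 7.63, and its differences lay between -0.12 and 0.05.

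Ctgf had the widest intervals of the 10 genes in the class gene comparisons, followed by Tead2 and Cyr61. It stood at 6.62, 8.24 and 9.28 (lowest, median, highest) in RAB3A tumours, at 5.21, 8.44 and 9.97 in BC74C and at 6.83, 7.68 and 9.22 in ZNF668. Each group spanned more than 2 log2 units, and the differences in Ctgf were 0.16 (SE 0.60) for RAB3A against ZNF668, 0.44 (SE 0.53) for BC74C against ZNF668 and -0.27 (SE 0.60) for RAB3A against BC74C. Cyr61 stood at 6.76, 7.64 and 8.91 in RAB3A tumours, at 6.44, 8.34 and 10.93 in BC74C and at 6.63, 7.91 and 9.19 in ZNF668. Its differences were -0.32 (SE 0.54), 0.37 (SE 0.48) and -0.68 (SE 0.54) in the same order. For Ctgf in RAB3A against ZNF668 the 95% interval ran from -1.06 to 1.39.

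**Figure D2:**
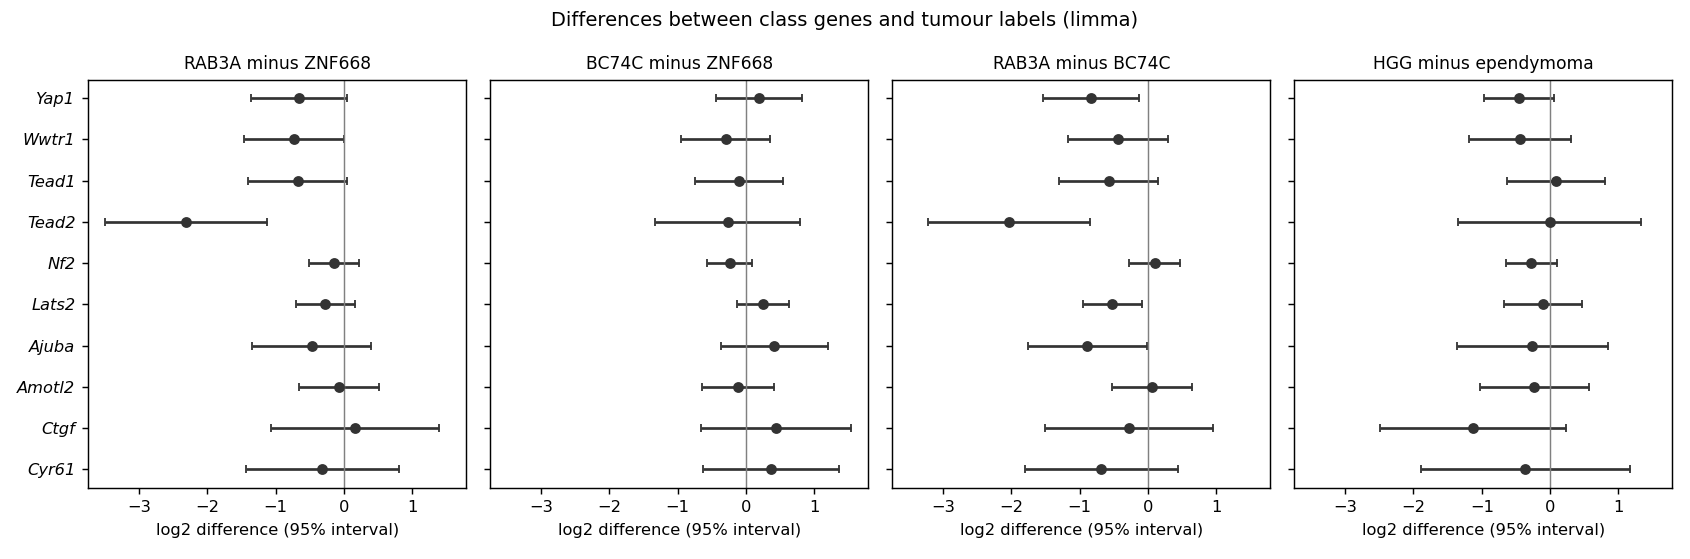
Log2 differences (x axis) of the 10 genes (y axis) with 95% intervals from limma, for 3 comparisons of class genes over 24 tumours and for HGG against ependymoma over 15 tumours. Points left of 0 are lower in the first-named group. Tead2 has the intervals farthest from 0, -3.49 to -1.12 against ZNF668 and -3.23 to -0.86 against BC74C.

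Because YAP1 fusions occur in human ependymoma, the tumour labels were compared next. Among the 15 tumours labelled ependymoma or HGG, with the class gene in the model, 0 of the 10 genes differed at an adjusted p under 0.05 (limma; 0% of all genes tested were called) and 0 at an unadjusted p under 0.05 (1.73% of all genes). Label and title prefix are partly mixed here. The tumours with mmr titles are ZNF668 replicate 8 and BC74C replicate 9 (both HGG) and RAB3A replicate 6 (ependymoma). Yap1 stood at 8.66, 9.64 and 9.97 (lowest, median, highest) in 11 ependymomas and at 8.80, 8.81, 9.47 and 9.47 in the 4 HGG tumours. All HGG values of Yap1 lay inside the ependymoma range. The Yap1 difference was -0.46 (SE 0.24, 95% interval -0.97 to 0.06, limma adjusted p = 1). Wwtr1 differed by -0.44 (SE 0.35), Nf2 by -0.27 (SE 0.18), Tead1 by 0.08 (SE 0.33) and Tead2 by -0.01 (SE 0.62).

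The largest mean difference between these labels was in Ctgf. It stood at 6.62, 7.64 and 9.97 in ependymomas and at 5.21, 7.57, 7.83 and 8.10 in HGG tumours. The difference of -1.13 (SE 0.63, 95% interval -2.48 to 0.23, limma adjusted p = 1) rested on BC74C replicate 9, which held the 5.21 and is the lowest of all 24 tumours. Within the elw titles, which leave that tumour out, the Ctgf difference was -0.25. Over all 24 tumours, Ctgf averaged 8.39 in the 18 with elw titles and 7.26 in the 6 with mmr titles. Whether the label effect itself differed between BC74C and ZNF668 tumours was tested over 13 tumours, and 0 of the 10 genes were called (limma; 0% of all genes). In that test Ctgf differed by -2.17 (SE 1.21, limma adjusted p = 0.622) and Cyr61 by -2.27 (SE 1.37, limma adjusted p = 0.634).

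The tumours labelled UNKNOWN had low coactivator and TEAD values, given here as a description. Yap1 stood at 7.21, 7.89, 8.51 and 9.05 in them, against a median of 9.64 in ependymomas. Tead1 stood at 7.87, 8.56, 8.81 and 9.33, and Tead2 at 4.46, 5.10, 5.42 and 6.16. Ctgf did not follow, at 6.83, 9.01, 9.28 and 9.31. The 5 tumours labelled TUMOR spanned much of the range in Yap1 (8.16 to 9.93) and Wwtr1 (9.002 to 11.02).

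The wider pathway was read from 4 lists. None of their genes was called in any of the 4 comparisons (limma). Of 15 tested Hippo kinases and scaffolds, such as Stk4, Sav1 and Lats1, 6 were higher and 9 lower by their mean differences in RAB3A against ZNF668, with a median of -0.03 beside -0.04 for all genes tested. The extremes were Ptpn14 (-0.28), a phosphatase that binds YAP, and Frmd6 (0.16), a FERM-domain scaffold. All 10 apical polarity and junction regulators tested were lower by their means, with a median of -0.40, from Wtip (-0.55), a LIM protein of the Ajuba family, to Amotl2 (-0.07). All 5 TEAD and VGLL factors tested were lower, with a median of -0.32, from Tead2 (-2.31) to Tead3 (-0.23). Against this background, 56.2% of all genes tested had a negative difference. Of 19 YAP and TAZ target genes tested, 8 were higher and 11 lower (median -0.26), from Igfbp3 (-1.13), a secreted binder of insulin-like growth factors, to F3 (0.44), which encodes tissue factor.

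In RAB3A against BC74C, 14 of the 19 target genes were lower by their means (median -0.35 beside -0.04 for all genes), from Igfbp3 (-0.89) to Arhgef17 (0.16), with 56.0% of all genes lower. The kinases ran from Lats2 (-0.52) to Nf2 (0.10), the junction regulators from Ajuba (-0.89) to Limd1 (0.12) and the TEAD and VGLL factors from Tead2 (-2.04) to Vgll3 (0.15). In BC74C against ZNF668, 13 of the 19 targets were higher by their means (median 0.21), where 48.8% of all genes were lower, from Dock5 (-0.44) to Tgfb2 (0.64), a growth factor. The other lists there ran from Nf2 (-0.24) to Wwc2 (0.41), from Limd1 (-0.49) to Ajuba (0.41) and from Vgll3 (-0.47) to Tead3 (-0.09). In HGG against ependymoma, 15 of the 19 targets were lower by their means (median -0.21), where 49.8% of all genes were lower, from Ctgf (-1.13) to Nt5e (0.62). The other lists ran from Nf2 (-0.27) to Wwc1 (0.14), from Amot (-0.45) to Limd1 (0.30) and from Vgll3 (-0.27) to Tead1 (0.08).

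Most of the genes varied together from tumour to tumour. Of the 45 pairs, 26 were correlated over the 24 tumours at an adjusted permutation p under 0.05 (Pearson, Benjamini-Hochberg over 45 pairs), all of them positively. By Spearman's rho 27 were called, and 25 by both. The weakest called pair had r = 0.47, and many genes of the array reach that size, positive or negative, with a given gene. The share of the other genes tested was 29.0% with Yap1, 31.9% with Wwtr1, 41.8% with Tead1 and 32.0% with Tead2. It was 25.3% with Ajuba, 22.1% with Cyr61 and 19.0% with Nf2. These shares count negative r as well, whereas the 26 called pairs were all positive. By positive r alone, Cyr61 (0.51) stood within the first 14.3% of genes ranked with Yap1. The share was 5.97% with Lats2, 3.49% with Amotl2 and 2.8% with Ctgf. An r of this size, of either sign, was thus common with the coactivators and TEAD factors.

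Yap1 and Wwtr1, the paired coactivators, had r = 0.77 (permutation p = 1e-05, the smallest that 100000 permutations can give; adjusted p = 0.000112) and rho = 0.73 (permutation p = 0.0001, adjusted p = 0.00045). With the 2 tumours of most extreme Yap1 left out their r was 0.75 (extreme meaning farthest from the median, as for each pair below), and it was 0.80 within the elw titles and 0.84 within mmr. Wwtr1 and Tead1 had r = 0.83 (permutation p = 1e-05, adjusted p = 0.000112) and rho = 0.78 (permutation p = 3e-05, adjusted p = 0.000225), with 0.78 without the 2 farthest, 0.86 within elw and 0.86 within mmr. Yap1 and Tead1 had r = 0.78 (permutation p = 2e-05, adjusted p = 0.00018) and rho = 0.75 (permutation p = 6e-05, adjusted p = 0.0003), with 0.65 without the 2 farthest, 0.74 within elw and 0.87 within mmr. Among 13217 other genes ranked by r with Yap1, Tead1 stood at 123, Wwtr1 at 147 and Tead2 at 231, within the first 1.75%. Ajuba stood at 354, Nf2 at 823, Lats2 at 1195 and Cyr61 at 1891. The genes most like Yap1 were Fzd7, a Wnt receptor (r = 0.91), Fkbp9 (0.89), Trps1 (0.88), Acsbg1 (0.88) and Gli2, a Hedgehog effector (0.88).

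Among the regulators and targets, Ajuba and Cyr61 gave the highest r of all 45 pairs, 0.85 (permutation p = 1e-05, adjusted p = 0.000112), with rho = 0.78 (permutation p = 5e-05, adjusted p = 0.000281). It was 0.72 without the 2 tumours of most extreme Ajuba, 0.83 within elw and 0.98 within mmr. Lats2 and Ajuba had r = 0.78 (permutation p = 3e-05, adjusted p = 0.000225) and rho = 0.69 (permutation p = 0.00028, adjusted p = 0.000964), with 0.60 without the 2 farthest, 0.84 within elw and 0.49 within mmr. Lats2 and Cyr61 depended on those tumours: r was 0.59 (permutation p = 0.00276, adjusted p = 0.00654; rho = 0.46, permutation p = 0.0247, adjusted p = 0.0427) and 0.24 without the 2 farthest, 0.62 within elw and 0.34 within mmr. Yap1 and Cyr61 had r = 0.51 (permutation p = 0.0126, adjusted p = 0.0227) and rho = 0.55 (permutation p = 0.00644, adjusted p = 0.0145), with 0.40 without the 2 farthest, 0.38 within elw and 0.93 within mmr. Without the 4 UNKNOWN tumours the r of Yap1 and Cyr61 was 0.37 (permutation p adjusted to 0.167), and without ZNF668 replicate 9 alone 0.44 (adjusted to 0.0649), so its call rested on the low tumours.

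Ctgf, a standard readout of YAP activity, did not follow the others. It was called with 0 of the other 9 genes, at r from -0.17 (Tead1) to 0.33 (Cyr61). With Yap1 its r was 0.07 (permutation p = 0.733, adjusted p = 0.773) and rho 0.12 (permutation p = 0.561, adjusted p = 0.65), 0.03 without the 2 farthest tumours, 0.07 within elw and -0.38 within mmr. With Cyr61 it was 0.33 (permutation p = 0.117, adjusted p = 0.165) and rho 0.26 (permutation p = 0.215, adjusted p = 0.312), 0.34 without the 2 farthest, 0.47 within elw and -0.30 within mmr. With the mature neuron mean regressed out, the r of Ctgf with Cyr61 was 0.57, and the pair was called. The genes most like Ctgf were Mmrn1 (r = 0.68), Aebp2 (0.67), Gprc5a (0.64), Dusp13 (0.63) and Arr3 (0.61), and Cyr61 ranked 779 of 13217 by its r with Ctgf. Amotl2 was called with 1 of 9 genes, Nf2, at r = 0.59 (permutation p = 0.0021, adjusted p = 0.00525) and rho = 0.64 (permutation p = 0.00079, adjusted p = 0.00209), with 0.60 without the 2 farthest, 0.66 within elw and 0.50 within mmr.

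**Figure D3:**
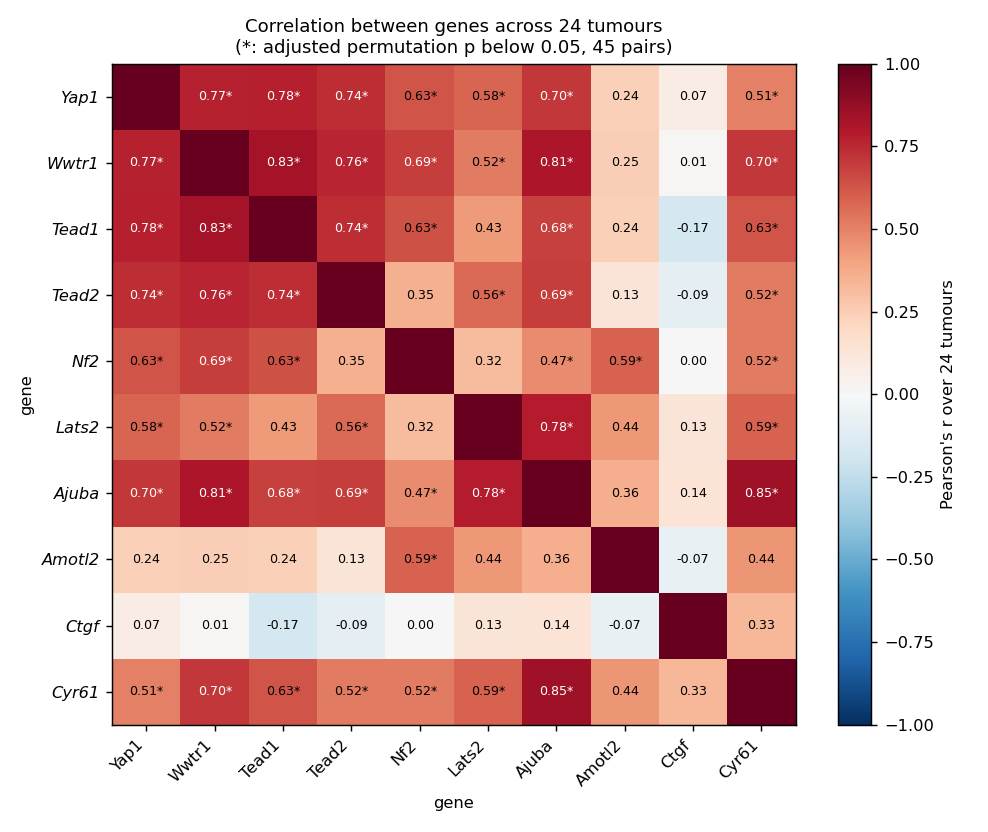
Pearson's r of each pair of the 10 genes (both axes) over 24 tumours; colour gives r, and a star marks an adjusted permutation p under 0.05 over 45 pairs. Of the 45 pairs 26 are starred; the column of Ctgf holds 0 stars and that of Amotl2 holds 1.

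**Figure D4:**
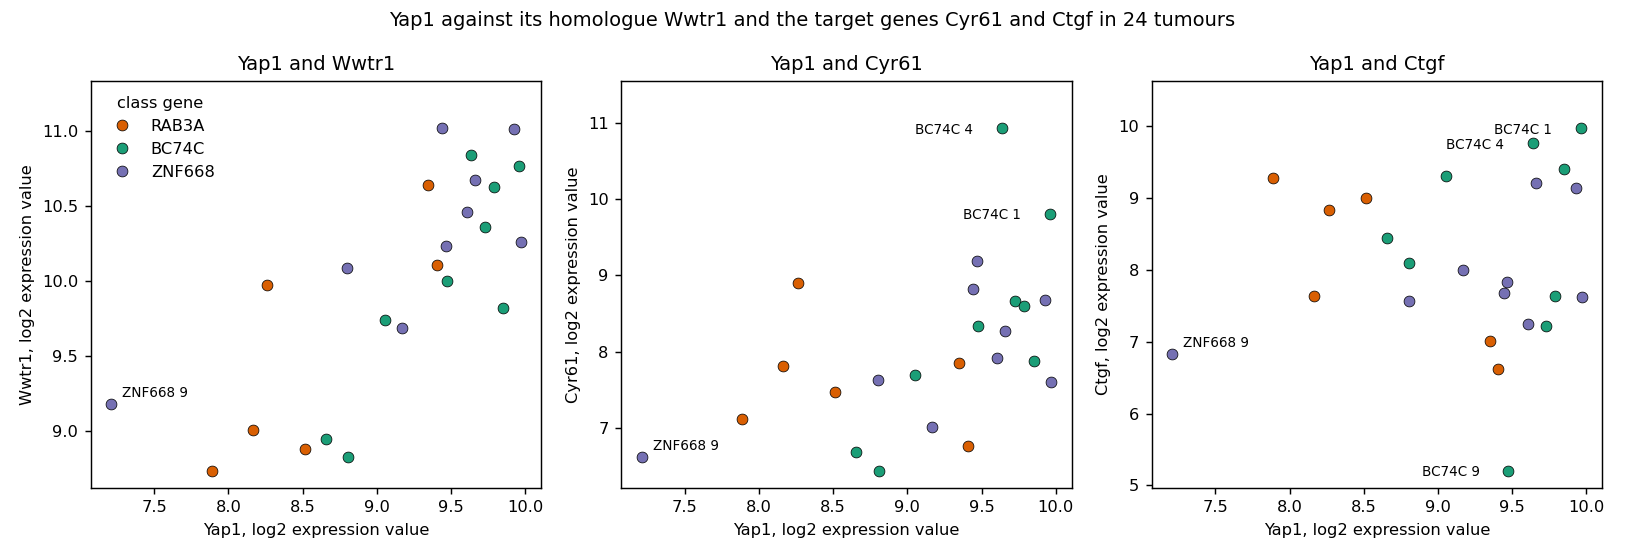
Log2 values of Wwtr1, Cyr61 and Ctgf (y axes) against Yap1 (x axis) in 24 tumours, coloured by class gene, with the tumours named in the text marked. Wwtr1 follows Yap1 (r = 0.77), and Cyr61 follows it less closely (0.51), with BC74C replicates 4 and 1 above the rest. Ctgf was not called with Yap1 (r = 0.07), and BC74C replicate 9 is lowest in Ctgf at 5.21.

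With each gene's class gene mean subtracted, all 26 pairs were still called, with 3 more. Of the 26 pairs, 21 were called within the elw titles, 19 without the 4 UNKNOWN tumours, 20 without the 2 tumours of most extreme first gene of the pair and 22 with the mature neuron mean regressed out. That last setting called 2 further pairs, Ctgf with Cyr61 among them. Regressing out the radial glia and neural stem mean left 13. Taking the mean of all probe sets of each gene left 21. There the r of Nf2 was 0.33 with Yap1, 0.44 with Wwtr1 and 0.43 with Tead1, against 0.63, 0.69 and 0.63 from the probe sets used. It was 0.42 with Ajuba and 0.42 with Cyr61, against 0.47 and 0.52, and higher only with Amotl2 (0.62 against 0.59) among its called pairs. The 6 mmr tumours alone gave 4.

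The 10 genes were then set against the means of 10 cell marker lists, which no gene of the 10 belongs to. Of 100 relations, 13 were called at an adjusted permutation p under 0.05 (Pearson), 8 of them positive. By Spearman's rho 18 were called, and 11 by both. The share of all genes tested that reach such an r with these list means was not computed. The counts below therefore do not show that the 10 genes stand apart from other genes. The radial glia and neural stem mean (Sox2, Pax6, Nes, Vim and others) was called with 6 genes. Tead1 had r = 0.83 with it (permutation p = 1e-05, adjusted p = 0.001; rho = 0.78, permutation p = 2e-05, adjusted p = 0.001), 0.77 without the 2 tumours of most extreme Tead1, 0.77 within elw and 0.88 within mmr. Yap1 had r = 0.75 (permutation p = 3e-05, adjusted p = 0.0015; rho = 0.57, permutation p = 0.00421, adjusted p = 0.0351), with 0.57 without the 2 farthest, 0.66 within elw and 0.95 within mmr. Tead2 (0.71), Wwtr1 (0.66), Ajuba (0.56) and Nf2 (0.55) followed. The Nf2 call was not made by rho (0.38, adjusted p = 0.223, permutation test) and was lost in 13 of 24 analyses that left out 1 tumour. The Ajuba call was lost in 9 of 24. Without the UNKNOWN tumours Tead1 kept its call (r = 0.71, permutation p adjusted to 0.023), while Yap1 (0.51) and Tead2 (0.64) no longer passed (permutation p adjusted to 0.214 and 0.0587). Neither did Wwtr1 (0.51), Ajuba (0.38) and Nf2 (0.28).

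The mature neuron mean ran the other way. Tead1 had r = -0.70 with it (permutation p = 0.00018, adjusted p = 0.0045; rho = -0.79, permutation p = 1e-05, adjusted p = 0.001), -0.75 without the 2 farthest tumours, -0.72 within elw and -0.87 within mmr. Tead2 (-0.61) and Wwtr1 (-0.59) were also called with it, and the mature oligodendrocyte mean was called with Tead1 (-0.66) and Wwtr1 (-0.57). Nf2 was called with the oligodendrocyte progenitor mean (0.63). Without the UNKNOWN tumours Tead1 kept its calls with neurons (-0.70) and oligodendrocytes (-0.7002), while Tead2 (-0.47) and Wwtr1 (-0.48) with neurons, Wwtr1 with oligodendrocytes (-0.56) and Nf2 with oligodendrocyte progenitors (0.47) lost theirs. Yap1 was called with the astrocyte mean (0.56), but r was 0.40 and not called without the UNKNOWN tumours and 0.27 without ZNF668 replicate 9 alone, rho was 0.26 and not called, and the call was lost in 15 of 24 analyses that left out 1 tumour. By Pearson's r, Ctgf, Cyr61, Lats2 and Amotl2 were called with 0 of the 10 lists. By rho, Cyr61 was called with 3 (mature neuron -0.59, mature oligodendrocyte -0.54, radial glia 0.53) and Amotl2 with 1 (oligodendrocyte progenitor 0.53), and Ctgf and Lats2 with 0. Ctgf had r = 0.34 with neurons and -0.05 with radial glia. The count of 13 was 3 without the 4 UNKNOWN tumours, all of Tead1, and 1 within the elw titles. It was 8 without BC74C replicate 3, BC74C replicate 7 or ZNF668 replicate 9, 20 without RAB3A replicate 3 and 21 without BC74C replicate 4. The ependymal and motile cilia mean was called with 0 of the 10 genes, at r from -0.19 to 0.17.

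**Figure D5:**
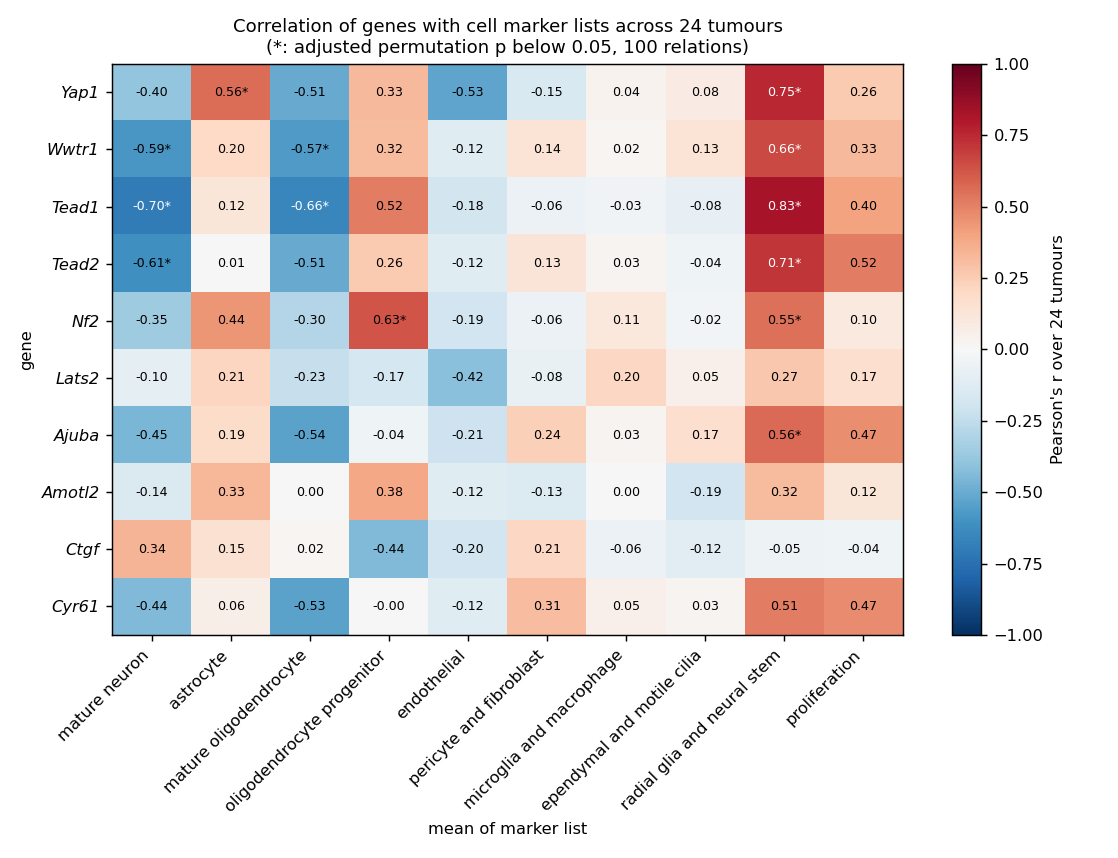
Pearson's r of the 10 genes (y axis) with the means of 10 cell marker lists (x axis) over 24 tumours; a star marks an adjusted permutation p under 0.05 over 100 relations. The radial glia and neural stem column holds 6 stars, from 0.55 (Nf2) to 0.83 (Tead1), and the mature neuron column holds 3, all negative.

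Single tumours stood out across several genes. BC74C replicate 4, an ependymoma, had the highest value of all 24 tumours in Lats2 (8.05), Ajuba (8.94), Amotl2 (8.98) and Cyr61 (10.93), and the second highest in Ctgf (9.77). BC74C replicate 1, also an ependymoma, was highest in Ctgf (9.97) and second in Yap1, Tead2, Lats2, Ajuba and Cyr61. Each was among the top 3 tumours in 6 of the 10 genes, against 12.3% and 18.1% of all genes tested. Of the 15 other YAP and TAZ target genes tested, replicate 1 was in the top 3 for 5, and highest for Myof (7.82), Igfbp3 (12.17), Ptpn14 (7.70) and Tgfb2 (6.76). Replicate 4 was in the top 3 for 3 of them, beside its share of 12.3% over all genes, and highest for Crim1 (9.58). It was in the bottom 3 for 2, beside 16.2% of all genes, as the lowest of 24 in Asap1 and the 23rd in Gadd45a. Their neuron marker means differed, at 9.04 in replicate 4 and 6.56 in replicate 1, while their radial glia means were 9.003 and 9.01.

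ZNF668 replicate 9, labelled UNKNOWN, was among the lowest 3 tumours in 6 of the 10 genes, against 27.1% of all genes tested, and held the lowest Yap1 of all (7.21). It was not low throughout the targets. Of the 15 other YAP and TAZ target genes, it was in the bottom 3 for 6 and in the top 3 for 4, beside 21.7% of all genes in the top 3. Its marker means were 8.90 for mature neurons, 10.83 for mature oligodendrocytes, 7.63 for astrocytes and 7.41 for radial glia, the last 2 the lowest of the ZNF668 group. The part of those cells in its low Yap1 was not tested. RAB3A replicate 5, also UNKNOWN, was among the lowest 3 in 5 of the 10 genes, against 20.7% of all genes, with the lowest Wwtr1 (8.73), Tead1 (7.87) and Nf2 (8.28) of the 24, while its Ctgf, at 9.28, lay in the upper part of the range. Of the 15 other target genes, it was in the bottom 3 for 6 and in the top 3 for 1, beside 13.2% of all genes in the top 3.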

How the data were processed

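Each of 24 tumours was measured on 1 single-colour Affymetrix array from Trizol-extracted total RNA, per the labels' protocols. The authors deposited log2 expression values for 45141 probe sets; Partek 6.6 was used, per the submitters' processing notes, and the background correction and normalization are not given in the sources used here. Signal over background could not be assessed for single values, and precision is limited by the number of arrays.

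Leaving aside 104 control probe sets, 28898 carry 1 gene symbol, 551 several and 15588 none. Genes whose probe set mean lay under the 30th percentile (3.76) were left out, leaving 13218. Differences were tested with limma 3.58.1 in R 4.3.3 (eBayes, trend by intensity; two-sided; Benjamini-Hochberg over these genes; threshold 0.05); the fit was tested on simulated data. Class genes were compared in a single model of 24 tumours, labels in 15 tumours with class gene as a covariate. Correlations used 100000 permutations. Promoters came from RefSeq (GRCm38.p6). The members and lists were chosen with earlier results of these data known. Named genes are the 10 members, the extremes of each list and the 5 genes most like Yap1 and Ctgf; the signature genes named for BC74C replicates 1 and 4 were chosen after their values were seen. Alternatives covered probe sets, filter, normalization, title prefix, array weights, marker covariates and leaving out tumours.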

Additional observations from a re-analysis of the deposited data

Results flagged for a closer look

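Within each class gene and each tumour label of 4 to 10 tumours, the highest and lowest value of each gene was set against the rest by Dixon's 95% criterion, in 60 groups. It marked 7 values, and chance marks about 1 in 20 groups. Yap1 in ZNF668 replicate 9 was 7.21, with the next ZNF668 tumour at 8.80. Nf2 was lowest by the same criterion in that tumour (8.37, next 8.996) and in RAB3A replicate 5 (8.28, next 8.93). Lats2 in RAB3A replicate 3 was 6.15, with the next RAB3A tumour at 6.71. Amotl2 in BC74C replicate 4 was 8.98, with the next BC74C tumour at 7.82. Wwtr1 in BC74C replicate 7 was 8.83, with the next HGG tumour at 10.0004. Ctgf in ZNF668 replicate 9 was 6.83, with the next UNKNOWN tumour at 9.01.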

How the results depend on the processing

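Across the alternatives run, 0 of the 10 genes were called in any comparison of class genes or labels, and leaving out each tumour in turn gave 0 to 1 called genes for RAB3A against ZNF668 and 0 to 0 for the others. The exception is Tead2 in RAB3A against ZNF668, between -2.73 and -2.09 when a tumour was left out and called without RAB3A replicate 6. Calls over all genes moved more: 10 for RAB3A against ZNF668 became 21 with the elw titles or array weights, 6 with no filter on dim genes and 0 without the UNKNOWN tumours, with the neuron covariate, among ependymomas or with only the class genes compared. With a tumour left out it was 0 to 40, highest without RAB3A replicate 6, 28 without ZNF668 replicate 9 and 0 in 12 of 24 analyses. The 40 for BC74C against ZNF668 became 130 with array weights, 0 among ependymomas and 25 to 63 with a tumour left out (63 without ZNF668 replicate 9), while 0 for RAB3A against BC74C became at most 4, with the neuron covariate or a tumour left out. Of 464 differences under other settings 427 kept their sign and 37 turned it, none of them called on either side, and the cause was not tested. No paired analysis was possible because the labels do not link any tumour with another.

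Among the tumours labelled ependymoma, RAB3A minus ZNF668 was 0.24 for Wwtr1, 0.028 for Tead1, 0.016 for Nf2, 0.40 for Ajuba and -0.80 for Ctgf. BC74C minus ZNF668 was 0.092 for Wwtr1 and 0.20 for Tead1, and RAB3A minus BC74C was 0.15 for Wwtr1 and -0.044 for Amotl2. Ctgf in RAB3A minus ZNF668 was -0.15 within elw, -0.41 with array weights, -0.21 with the neuron covariate and -0.51 without the UNKNOWN tumours. Yap1 in BC74C minus ZNF668 was -0.20 within elw, -0.033 with array weights and -0.017 without the UNKNOWN tumours. With the neuron covariate Cyr61 in RAB3A minus ZNF668 was 0.14, and in BC74C minus ZNF668 Tead1 was 0.13 and Tead2 0.059. In HGG minus ependymoma, Tead1 was -0.24 with a block for title prefix, -0.39 within elw and -0.13 with the neuron covariate, Tead2 was 0.26 with no covariate, and with array weights Ajuba was 0.056, Amotl2 0.10 and Cyr61 0.24.

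Leaving out a tumour at a time turned the sign of some differences that were not called. In RAB3A minus ZNF668, Amotl2 ran from -0.17 to 0.051 and Ctgf from -0.079 to 0.45. In BC74C minus ZNF668, Yap1 ran from -0.066 to 0.29, Tead1 from -0.28 to 0.018 and Tead2 from -0.48 to 0.0026. In RAB3A minus BC74C, Amotl2 ran from -0.048 to 0.24 and Ctgf from -0.67 to 0.015. In HGG minus ependymoma, Tead1 ran from -0.21 to 0.54, Tead2 from -0.30 to 0.36, Lats2 from -0.28 to 0.030, Ajuba from -0.58 to 0.24, Amotl2 from -0.44 to 0.022 and Cyr61 from -0.87 to 0.35. The r of Ctgf ran from -0.077 to 0.17 with Yap1 and from -0.072 to 0.10 with Wwtr1.

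Other probe sets turned signs only for Nf2 and Lats2. Nf2 was 0.15 in BC74C minus ZNF668, -0.18 in RAB3A minus BC74C and 0.064 in HGG minus ependymoma. Lats2 was 0.077 in RAB3A minus ZNF668, -0.063 in BC74C minus ZNF668, 0.054 in RAB3A minus BC74C and 0.15, 0.029, 0.021 and 0.0064 in HGG minus ependymoma, where the mean of its probe sets gave 0.020.

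The 26 called pairs were 4 within mmr and 13 with the radial glia mean regressed out, and 23 to 30 with a tumour left out. The 13 called relations with cell lists were 1 within elw, 0 within mmr, 20 with class gene means subtracted and 3 without the UNKNOWN tumours; the 6 mmr tumours give little power. They were 8 to 21 with a tumour left out: 8 without BC74C replicate 3, BC74C replicate 7 or ZNF668 replicate 9, 20 without RAB3A replicate 3 and 21 without BC74C replicate 4. Among the correlations followed, those of Ctgf turned sign: with Yap1 (-0.38 within mmr, -0.034 with the mean of probe sets), Wwtr1 (-0.33 within mmr), Tead1 (0.052 within elw, 0.10 with the neuron mean regressed out) and Cyr61 (-0.30 within mmr). Ctgf with Cyr61, not called in the main analysis, was called at r = 0.57 with the neuron mean regressed out.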
